A study of Mus musculus with 2 samples.

Results

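Cadherins are cell-surface proteins that hold neighbouring cells together in a calcium-dependent way. Classical cadherins bind catenins through their cytoplasmic tail and so link the membrane to actin, whereas the delta protocadherins adhere more weakly, lack a beta-catenin binding tail and are best known from the nervous system. In mesenchymal cells such as fat progenitors, N-cadherin and cadherin-11 are the usual classical members, and T-cadherin, the product of Cdh13, is a receptor for the fat hormone adiponectin.

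The 35 genes described here are the protein-coding mouse genes whose symbol is Cdh or Pcdh followed by a number, out of 21887 protein-coding genes in the gene table. Membership goes by symbol, without the clustered Pcdha, Pcdhb and Pcdhg genes, a rule set with earlier results of these data known. A peak was given to the nearest of these genes when its centre lay in the gene or within 50 kb of its span on build mm10. This rule took 93 of the 22485 peaks of the study, 25 of 8002 from PDGFRα+ cells and 68 of 14483 from CD137+ cells.

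The PDGFRα+ group and the CD137+ group were each 1 ATAC-seq library, an assay in which a transposase tags open chromatin. Both groups came from C57BL/6 adipose tissue, were separated by MACS from SAT or VAT, were exposed to an adipogenic cocktail and received dexamethasone at 1 µM. The labels do not tie a depot to a group, and untreated cells were not analysed here, so the values do not measure the drug. Their extraction text describes embryos with a zona pellucida, which does not match adipose cells. MACS selects cells by 1 surface protein, and the purity of either group is not stated.

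Each library has 1 deposited list of peaks called unique, with positions, an Ensembl ID and a place class, and without heights or read numbers. Depth is therefore unknown. Since only unique peaks are listed, the absence of a peak does not mean that a gene was closed. With 1 library per group no spread between replicates could be measured, and no test was run. All intervals below are 95% intervals that cover counting error only. Among all protein-coding genes 40.4% had a PDGFRα+ peak within 50 kb and 49.5% a CD137+ peak. Beside this, 1 of 5 stromal progenitor markers had a PDGFRα+ peak and 3 had a CD137+ peak. Of 5 adipocyte markers, 2 had a PDGFRα+ peak and 4 a CD137+ peak. The 4 mesothelial markers had 7 PDGFRα+ and 2 CD137+ peaks, of which Wt1 had 5 and 0. Pdgfra itself had 0 PDGFRα+ peaks and 1 CD137+ peak, and Tnfrsf9, which encodes CD137, had 1 of each. These counts are too few to test the labels.

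Open sites at the cadherin genes came mostly from the CD137+ list. PDGFRα+ peaks made up 26.9% of the 93 peaks (exact interval 18.2 to 37.1%), against 35.6% of all other peaks, a difference of -8.74 percentage points (Newcombe interval -16.7 to 1.07). The interval includes 0, so the lower share was within counting error of the share elsewhere. Put as a ratio, there were 2.72 CD137+ peaks for each PDGFRα+ peak at the cadherin genes and 1.81 over the whole lists. The difference shrank to -3.71 points without the 6 genes with 7 or more peaks (Cdh2, Cdh13, Cdh18, Cdh23, Pcdh9 and Pcdh15) and was -13.9 points among the wider 50% of each list.

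**Figure D1:**
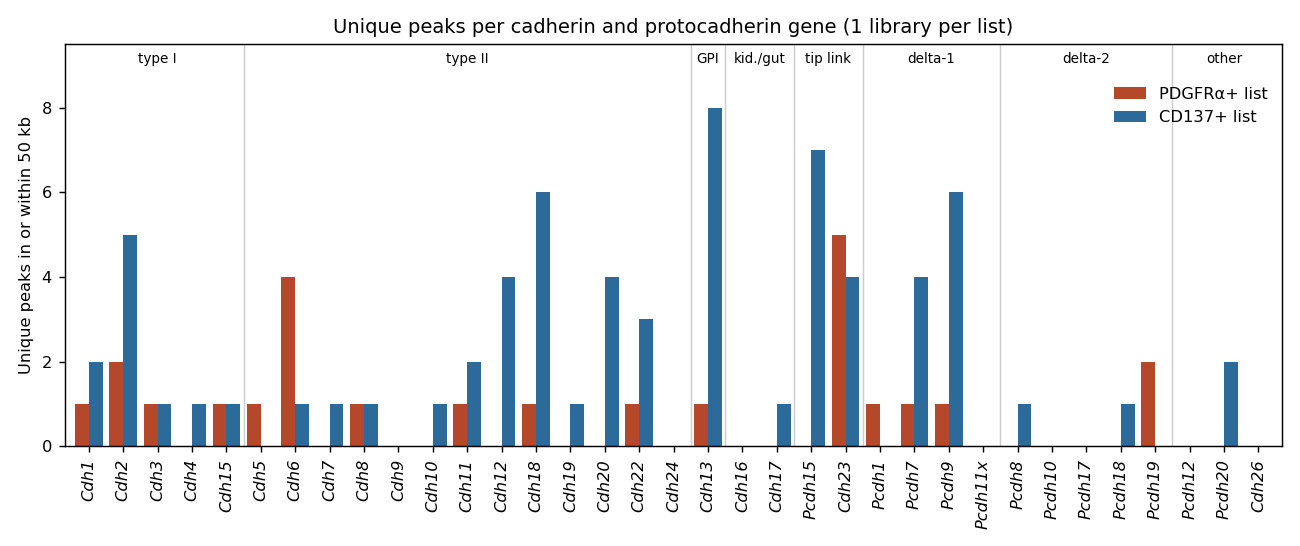
Number of unique peaks (vertical axis) in or within 50 kb of each of the 35 cadherin and protocadherin genes (horizontal axis), with the PDGFRα+ list as the left bar and the CD137+ list as the right bar of each gene. Genes are grouped by class, kid./gut standing for the kidney and intestine cadherins Cdh16 and Cdh17. Cdh13 has the tallest CD137+ bar, at 8 peaks, and Cdh23 the tallest PDGFRα+ bar, at 5.

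Of the 35 genes, 27 had a peak of either list (77.1%, against 65.1% of all protein-coding genes with a peak within 50 kb). A PDGFRα+ peak lay at 16 genes (45.7%, background 40.4%) and a CD137+ peak at 24 (68.6%, background 49.5%). Both lists had peaks at 13 genes (37.1%, background 24.8%), while 3 genes (Cdh5, Pcdh1 and Pcdh19) had PDGFRα+ peaks only and 11 had CD137+ peaks only. The 8 genes without a peak were Cdh9, Cdh16, Cdh24, Cdh26, Pcdh10, Pcdh11x, Pcdh12 and Pcdh17. Their spans ran from 10.8 kb (Cdh24) to 620 kb (Pcdh11x).

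Gene length moves with these counts. The cadherin genes had a median span of 123 kb, against 17.2 kb for all protein-coding genes, and 54.3% of them span at least 100 kb, against 11.1% of all genes. Among the 19 cadherin genes of that length, 11 had a PDGFRα+ peak (57.9%, background 64.5% of genes as long) and 16 had a CD137+ peak (84.2%, background 82.0%). From 300 kb, 6 of 10 had a PDGFRα+ peak (60.0%, background 72.0%) and 9 of 10 a CD137+ peak (90.0%, background 90.8%). At these lengths the shares of genes with a peak were thus near the background in both lists. Peaks per megabase of window were fewer than near other genes, with 1.85 PDGFRα+ peaks per Mb at the cadherin genes against 3.81 at other protein-coding genes. For the CD137+ list the densities were 5.04 and 6.19 per Mb. The other genes in these densities were of any length, so the densities were not matched for length.

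A gene was said to lean to a list when it had at least 3 peaks in all and at least 2 times as many in that list. Cdh6 alone leaned to the PDGFRα+ list, and 11 genes leaned to the CD137+ list. Because the CD137+ list is longer, the rule is met more easily on its side. The background counts each gene in its own window, where Cdh1 and Cdh3 share peaks and Cdh1 no longer leans. On that count 1 of 35 cadherin genes leaned to PDGFRα+ (2.86%, background 5.10%) and 10 leaned to CD137+ (28.6%, background 11.1%). Among genes of at least 100 kb, 10 of 19 leaned to CD137+ (52.6%, background 33.8%), and among those of at least 300 kb, 6 of 10 did (60.0%, background 48.3%). None of these 10 leaned to PDGFRα+ (background 7.72%).

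**Figure D2:**
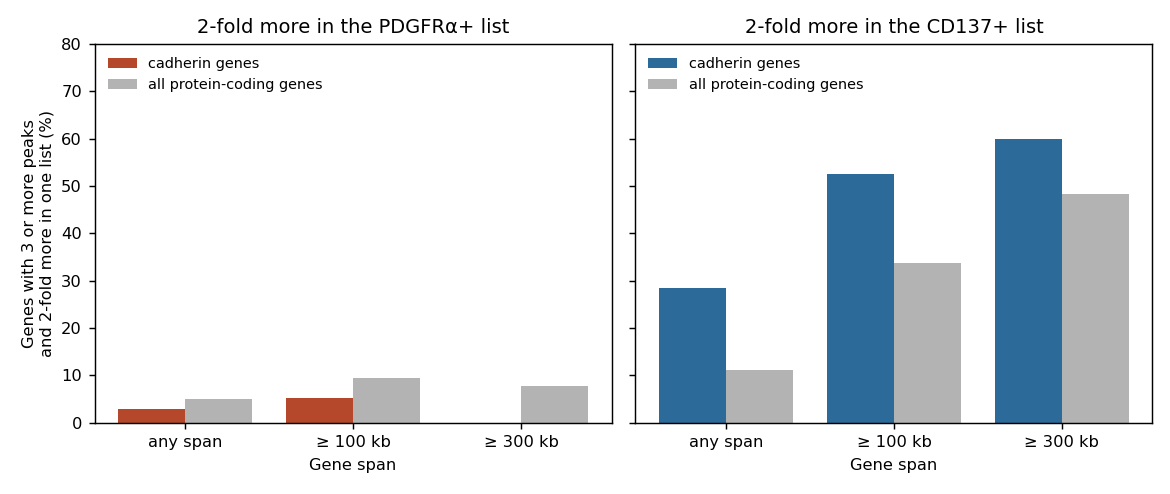
Percentage of genes (vertical axis) with 3 or more peaks within 50 kb and 2-fold more in the PDGFRα+ list (left panel) or in the CD137+ list (right panel), by minimum gene span (horizontal axis). Coloured bars are cadherin genes and grey bars all protein-coding genes. In the right panel the coloured bar stands at 28.6% against 11.1% for any span and at 60.0% against 48.3% from 300 kb.

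Shares of peaks were also set against genes of like length. The PDGFRα+ share was 25.6% at cadherin genes of at least 100 kb and 36.0% at other genes as long, a difference of -10.3 points (-18.8 to 0.393). At cadherin genes of at least 300 kb it was 19.6%, with 10 PDGFRα+ and 41 CD137+ peaks, against 32.9% at other genes as long. This difference was -13.3 points (-22.1 to -0.356), with an interval just below 0. Peaks at 1 gene are not independent of each other, which the interval does not cover.

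**Figure D3:**
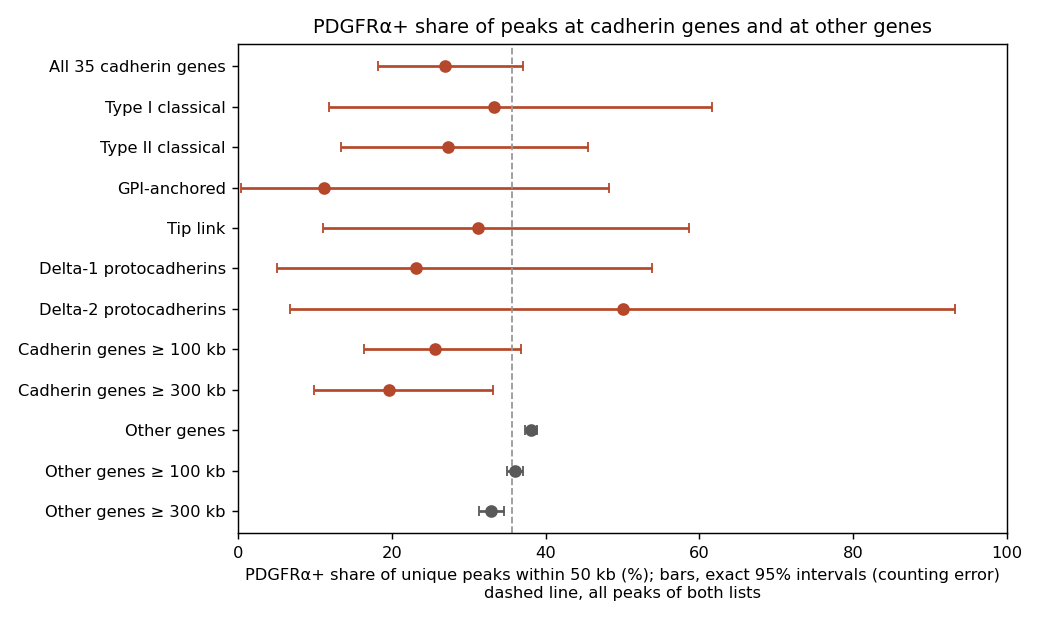
PDGFRα+ share of unique peaks within 50 kb (horizontal axis, percent) for all cadherin genes, for classes with 4 or more peaks, for long cadherin genes, and for other protein-coding genes by minimum span. Points are shares, bars exact 95% intervals for counting error, and the dashed line is the share over all peaks. The 35 cadherin genes stand at 26.9%, left of the line at 35.6%, with an interval that crosses it.

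Peaks over the start of a gene were found at 3 cadherin genes among the 22 with a promoter in the RefSeq table of build GRCm38.p6, and all 3 peaks were CD137+ peaks. Of 17492 protein-coding genes with a promoter in that table, 1.82% had a PDGFRα+ peak over it and 2.98% a CD137+ peak, beside 0 and 3 of the 22 cadherin genes (13.6% for CD137+). These genes were Cdh20 and Cdh8, type II cadherins known mainly from the developing nervous system, and Pcdh8, the paraxial protocadherin of early mesoderm. Their promoters are shown because they are the only listed cadherin starts under a unique peak. Cadherin genes without a listed promoter could not be counted. Among those, a PDGFRα+ peak covered the low-coordinate end of the span of Cdh1, and CD137+ peaks that of Cdh3 and of Cdh13. Each line gives the 250 bases before the start, 5′ to 3′ on the gene's strand. Capitals mark 4 motifs searched on both strands, namely the TEAD core GGAATG, the GC box GGGCGG, the TATA box TATAAA and the CCAAT box CCAAT.
Cdh20, chr1:104768270-104768519, plus strand: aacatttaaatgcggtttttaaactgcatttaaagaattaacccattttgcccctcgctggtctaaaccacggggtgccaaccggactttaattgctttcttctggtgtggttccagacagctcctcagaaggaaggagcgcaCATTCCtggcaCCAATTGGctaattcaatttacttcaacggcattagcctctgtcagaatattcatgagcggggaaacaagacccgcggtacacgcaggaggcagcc
Cdh8, chr8:99416472-99416721, minus strand: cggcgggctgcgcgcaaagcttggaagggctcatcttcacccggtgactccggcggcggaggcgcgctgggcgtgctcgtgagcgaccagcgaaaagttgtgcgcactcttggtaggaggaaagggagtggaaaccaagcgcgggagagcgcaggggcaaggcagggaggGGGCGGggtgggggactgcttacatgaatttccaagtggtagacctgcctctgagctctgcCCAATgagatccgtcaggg
Pcdh8, chr14:79771313-79771562, minus strand: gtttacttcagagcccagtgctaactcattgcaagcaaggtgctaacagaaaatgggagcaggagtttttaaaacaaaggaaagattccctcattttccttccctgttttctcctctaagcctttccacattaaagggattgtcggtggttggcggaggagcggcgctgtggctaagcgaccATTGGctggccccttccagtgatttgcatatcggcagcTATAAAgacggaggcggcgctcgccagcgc

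The Cdh20 peak (chr1:104768201-104770109, 1908 bp, class up5k) covered all 250 bases, and no PDGFRα+ peak lay within 50 kb of the gene. Its promoter held 1 TEAD core on the reverse strand, 107 bases before the start, and 2 CCAAT boxes that overlap on opposite strands. The Cdh8 peak (chr8:99415859-99416684, 825 bp) covered 213 bases and the Pcdh8 peak (chr14:79770394-79772000, 1606 bp) all 250. The Cdh8 promoter held a GC box and a CCAAT box, and the Pcdh8 promoter held a CCAAT box and a TATA box 30 bases before the start. A TEAD core occurred in 11.6% of 20998 promoters of protein-coding genes, a GC box in 43.1%, a TATA box in 11.6% and a CCAAT box in 35.3%. Over all 25 promoter windows of the 22 cadherin genes, which include 3 for Cdh7 and 2 nearly identical ones for Pcdh9, 15 held a CCAAT box, 9 a GC box, 3 a TEAD core and 2 a TATA box. Another 4 motifs had no match in the 3 promoters printed. They were the glucocorticoid receptor motif AGAACA (2 of the 25 windows, 13.6% of all promoters), the E-box CACCTG of Snail and ZEB factors (3 windows, 17.0%), the C/EBP motif TTGCNNAA (1 window, 9.08%) and the AP-1 motif TGANTCA (0 windows, 6.13%). A match of letters is a description and shows no binding.

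The Cdh8 and Pcdh8 peaks carry the class down5k although they lie over the start of the gene. Both genes are on the minus strand. Over both lists this was usual. Of peaks over a listed start on the minus strand, 81 of 144 PDGFRα+ peaks (56.2%) and 153 of 250 CD137+ peaks (61.2%) had the class down5k. On the plus strand this was so for 3 of 166 PDGFRα+ peaks (1.81%) and 6 of 249 CD137+ peaks (2.41%). The classes up5k and down5k are therefore not read below as upstream and downstream.

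The type I classical cadherins, which carry the strong adhesion of epithelium, nerve and muscle, had 5 PDGFRα+ and 10 CD137+ peaks, a PDGFRα+ share of 33.3% (11.8 to 61.6%). All 5 genes had a peak. Cdh2 encodes N-cadherin, the type I member typical of mesenchyme, and had 2 PDGFRα+ and 5 CD137+ peaks. One PDGFRα+ peak was intronic (chr18:16673235-16674237) and the other lay 11.6 kb beyond the high-coordinate end (chr18:16820107-16821594). Of the CD137+ peaks, 2 were intronic (chr18:16682223-16683136 and chr18:16744216-16745776) and 1 exonic (chr18:16774095-16774975). The other 2 CD137+ peaks formed a close pair 41.2 and 38.8 kb below the gene (chr18:16546832-16548457 and chr18:16549426-16550765). Both lists thus marked the inside of Cdh2, and the nearest PDGFRα+ and CD137+ peaks were 7.99 kb apart.

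Cdh1, which encodes the epithelial E-cadherin, and Cdh3, which encodes P-cadherin, are neighbours on chromosome 8. At Cdh1 the PDGFRα+ peak lay over the low-coordinate end of the span (chr8:106603158-106604053, class up5k). Its 2 CD137+ peaks were intronic (chr8:106625779-106627102) and 16.4 kb below the gene (chr8:106586552-106587433). At Cdh3 the positions were the other way round. Its PDGFRα+ peak was 4.61 kb beyond the high-coordinate end (chr8:106561016-106562021), and its CD137+ peak covered the low-coordinate end (chr8:106510538-106512752). That CD137+ peak was 2214 bp wide, wider than 96.8% of its list. The epithelial markers Epcam, Cdh1 and Krt8 had 2 PDGFRα+ and 5 CD137+ peaks in their own windows, and their part in the Cdh1 and Cdh3 values was not tested.

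Cdh15, which encodes the M-cadherin of muscle satellite cells, had 1 PDGFRα+ peak 2.43 kb before its listed start and 1 CD137+ peak 13.2 kb before it. That CD137+ peak had the class intron, under a different Ensembl ID than the PDGFRα+ peak. Cdh4, which encodes R-cadherin, spans 457 kb and had 0 PDGFRα+ peaks and 1 CD137+ peak. This peak was 20.8 kb outside Cdh4 and inside Taf4, a gene of the general transcription machinery. No unique peak of either list was thus inside the span of Cdh4 or of Cdh15.

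The type II classical cadherins had 9 PDGFRα+ and 24 CD137+ peaks, a PDGFRα+ share of 27.3% (13.3 to 45.5%), and 11 of 13 genes had a peak. Cdh6, known from kidney and neural crest development, was the gene that leaned to PDGFRα+. It had 4 PDGFRα+ peaks and 1 CD137+ peak. All 4 PDGFRα+ peaks were intronic, at chr15:13066023-13068341, chr15:13088433-13089208, chr15:13141295-13142701 and chr15:13166314-13167441. The first was 2318 bp wide, wider than 97.1% of its list, and the last was 6.80 kb from the listed start. The CD137+ peak was intergenic and 40.4 kb beyond the gene (chr15:13216186-13217501). So inside the 148 kb of Cdh6 the PDGFRα+ list had 4 peaks and the CD137+ list 0. Among all protein-coding genes 5.10% leaned to PDGFRα+ by the same rule, and among those of at least 100 kb 9.51% did.

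Cdh11, which encodes the mesenchymal cadherin-11 of fibroblasts and bone-forming cells, had 1 PDGFRα+ and 2 CD137+ peaks. The PDGFRα+ peak (chr8:102750173-102751003) and 1 CD137+ peak (chr8:102734296-102735704) were intronic and 14.5 kb apart. The other CD137+ peak was intergenic, 4.61 kb below the gene (chr8:102627052-102627914). With 3 peaks in all, its lean to CD137+ rests on 1 peak.

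The type II genes with most CD137+ peaks were Cdh18, Cdh12, Cdh20 and Cdh22. Cdh18 had 1 PDGFRα+ and 6 CD137+ peaks, all intronic. The PDGFRα+ peak (chr15:23419706-23420747) stood 1.79 kb from a CD137+ peak (chr15:23416078-23417911), the closest opposite pair at any cadherin gene. Another CD137+ peak followed on its other side (chr15:23429717-23430926). Of the rest, 3 CD137+ peaks clustered at chr15:22732661-22733667, chr15:22763727-22765009 and chr15:22789310-22790326, and 1 lay 13.6 kb from the listed start (chr15:23022432-23023367). The nearest opposite pair was 18.7 kb apart at the median of the 13 genes with both lists and 326 kb apart at Cdh13. How close such pairs lie at other genes was not computed.

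Cdh12 had 0 PDGFRα+ and 4 CD137+ peaks spread over its span of 1150 kb. They lay over the low-coordinate end (chr15:20448490-20449753), inside the gene (chr15:20660580-20661780 and chr15:21544538-21545675) and 20.7 kb beyond it (chr15:21618507-21619809). Cdh20 had 0 and 4. Beside the peak over its start, 3 intronic CD137+ peaks stood between 56.4 and 73.2 kb from the start (chr1:104824251-104825599, chr1:104838655-104839629 and chr1:104840963-104842462). Cdh22 had 1 PDGFRα+ peak (chr2:165215158-165216419) and 3 CD137+ peaks (chr2:165189075-165190258, chr2:165195129-165196463 and chr2:165263372-165264600). The PDGFRα+ peak was 18.9 kb from the listed start and the nearest CD137+ peak 29.2 kb from it, on the other side. A CD137+ peak thus covered the low-coordinate end of Cdh12 and of Cdh20, and none covered an end of Cdh22. The Cdh20 peak also covered the listed start, whereas the Cdh12 peak was classed intergenic and lay 662 kb from the listed start.

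The remaining type II genes with a peak had 1 peak or 1 of each list. Cdh8 had 1 PDGFRα+ intronic peak 255 kb from its listed start, and the CD137+ peak over that start. Cdh5, which encodes the VE-cadherin of endothelium, had 1 PDGFRα+ peak, 39.7 kb away, and 0 CD137+ peaks. The 4 endothelial markers, Cdh5 among them, had 3 PDGFRα+ and 3 CD137+ peaks, with Pecam1 at 0 in both lists, and their part in the Cdh5 value was not tested. Cdh7, Cdh10 and Cdh19, a cadherin of the Schwann cell lineage, each had 0 PDGFRα+ peaks and 1 CD137+ peak. The Cdh7 peak was intronic, and those of Cdh10 and Cdh19 were 30.9 and 18.6 kb outside the genes. The Schwann markers, Cdh19 included, had 1 PDGFRα+ and 5 CD137+ peaks, whose part in the Cdh19 value was not tested.

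Cdh13, with the longest span after Pcdh15, had the most CD137+ peaks of any cadherin gene. Its product, T-cadherin, is anchored by a lipid and has no cytoplasmic tail. The gene had 1 PDGFRα+ and 8 CD137+ peaks, all inside its span of 1185 kb, a PDGFRα+ share of 11.1% (0.281 to 48.2%). Among all protein-coding genes of at least 300 kb, 48.3% leaned to CD137+. The Cdh13 count itself was not set against counts at genes of like length. The first CD137+ peak covered the low-coordinate end of the span (chr8:118139325-118140879). Then 6 more followed within 379 kb of that end, at chr8:118238992-118239868, chr8:118286102-118287683, chr8:118306636-118307572, chr8:118393452-118394843, chr8:118444008-118445410 and chr8:118517944-118519541. The PDGFRα+ peak stood by itself at 706 kb (chr8:118845349-118846637), and the last CD137+ peak was near the far end (chr8:119309607-119311040). Thus 7 of the 8 CD137+ peaks lay in the low-coordinate part of the gene, where no PDGFRα+ peak was listed. Adipoq, which encodes the adiponectin that T-cadherin binds, had 0 PDGFRα+ peaks and 1 CD137+ peak.

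**Figure D4:**
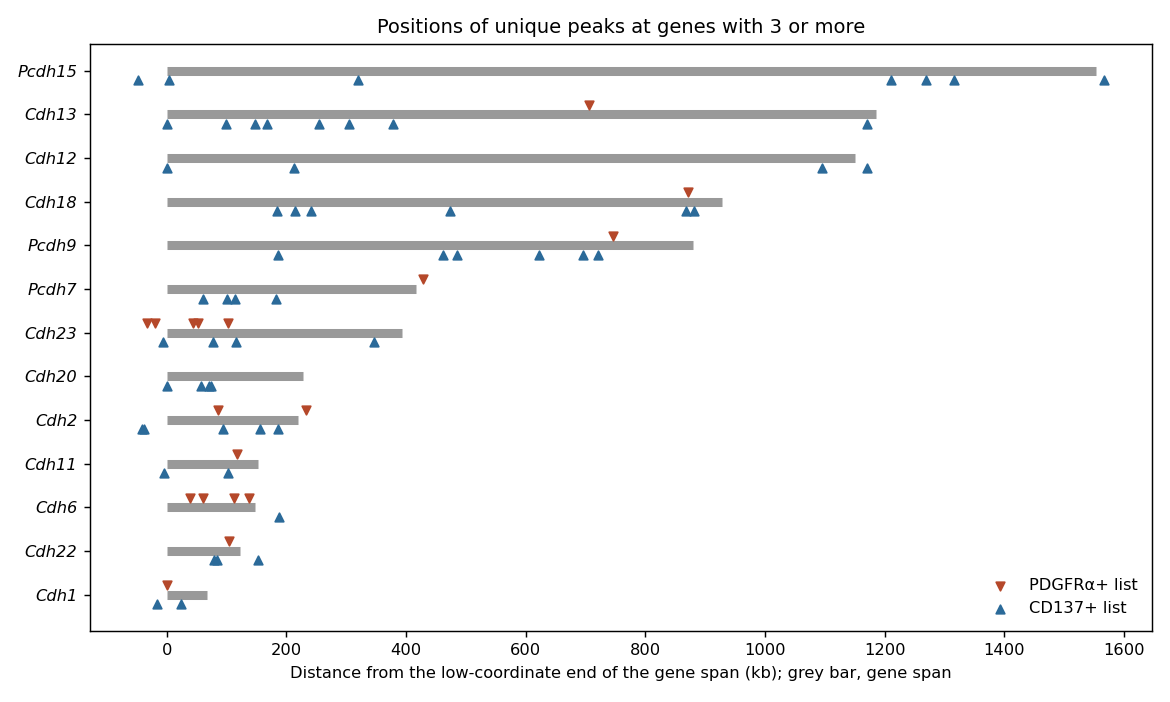
Positions of unique peaks at the 13 genes with 3 or more, as the distance of the peak centre from the low-coordinate end of the gene span (horizontal axis, kb). Grey bars are gene spans, triangles above a bar PDGFRα+ peaks and triangles below it CD137+ peaks. Cdh6 shows 4 PDGFRα+ peaks inside its bar and no CD137+ peak there, and Cdh13 shows 7 CD137+ peaks within its first 379 kb.

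Of the kidney cadherin Cdh16 and the liver-intestine cadherin Cdh17, Cdh17 had 0 PDGFRα+ peaks and 1 exonic CD137+ peak, and Cdh16 had no peak.

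Cdh23 and Pcdh15, whose products join to form the tip links of hair cells in the inner ear, had different counts. Pcdh15 had 0 PDGFRα+ and 7 CD137+ peaks in and around its 1554 kb. Of these, 5 were inside the span, at chr10:73098943-73100273, chr10:73415594-73416507, chr10:74305549-74306376, chr10:74366006-74367403 and chr10:74412032-74413179. The other 2 lay beyond either end, at chr10:73048342-73049701 and chr10:74662888-74663841. Cdh23 had 5 PDGFRα+ and 4 CD137+ peaks. It leaned to neither list, and its peaks are given in full because it had the most PDGFRα+ peaks, a choice made after the values were seen.

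Most peaks given to Cdh23 are centred in other genes. The gene table places Vsir, which encodes an immune checkpoint protein, inside the Cdh23 span, and Psap, which encodes the lysosomal protein prosaposin, beside it. Of the 5 PDGFRα+ peaks, 3 were centred in Vsir (chr10:60346085-60347778, chr10:60353021-60356245 and chr10:60405136-60406178) and 1 in Psap (chr10:60281925-60283594). The fifth was intergenic (chr10:60268956-60270137). The second Vsir peak was 3224 bp wide, the widest at any cadherin gene and wider than 99.3% of its list. Of the 4 CD137+ peaks, 2 were centred in Vsir (chr10:60379226-60380588 and chr10:60416787-60417719), 1 in Psap (chr10:60295881-60296722) and 1 in Cdh23 alone (chr10:60648131-60648958). Outside Vsir and Psap, 1 peak of each list was thus given to Cdh23. The CD137+ one lay inside the Cdh23 span, and the PDGFRα+ one 33.2 kb outside it, beyond Psap. The Vsir peaks at chr10:60353021-60356245, chr10:60379226-60380588 and chr10:60416787-60417719 carry the same deposited Ensembl ID as the peak in Cdh23 alone. Which gene the peaks in Vsir and Psap serve was not tested. Leaving Cdh23 out gave a PDGFRα+ share of 23.8% at the cadherin genes, and leaving Pcdh15 out gave 29.1%, the lowest and highest values when 1 gene was left out.

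The delta-1 protocadherins had 3 PDGFRα+ and 10 CD137+ peaks, a PDGFRα+ share of 23.1% (5.04 to 53.8%). Pcdh9 had 1 PDGFRα+ and 6 CD137+ peaks, all intronic. Its CD137+ peaks were spaced over chr14:93199366-93200635, chr14:93474315-93475835, chr14:93498779-93499819, chr14:93636619-93637735, chr14:93708111-93709193 and chr14:93734082-93734942. The PDGFRα+ peak (chr14:93758636-93759974) was the nearest of the 7 to the listed start, 131 kb from it. Pcdh7 had 1 PDGFRα+ and 4 CD137+ peaks. Its CD137+ peaks all lay inside the gene (chr5:57776809-57777679, chr5:57816116-57817344, chr5:57830011-57831208 and chr5:57898668-57899747), within 181 kb of the listed start. Its PDGFRα+ peak was beyond the opposite end, 426 kb from the start (chr5:58143354-58144463). Pcdh1 had 1 PDGFRα+ peak 13.5 kb outside the gene and 0 CD137+ peaks, and Pcdh11x had none.

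The delta-2 protocadherins, which act in neural development, had 2 PDGFRα+ and 2 CD137+ peaks at 3 of 5 genes. Both PDGFRα+ peaks were at Pcdh19, 1 intronic and 1 46.0 kb outside. The CD137+ peaks were the one over the start of Pcdh8 and an intronic one at Pcdh18. Of the further members, Pcdh20 had 0 PDGFRα+ peaks and 2 CD137+ peaks, 35.3 and 44.1 kb outside the gene on either side. Cdh26 and Pcdh12 had none.

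Most peaks given to the cadherin genes had the class intron. The class can refer to another gene, as for the peaks in Psap and Taf4 and the CD137+ peak near Cdh15. The class intron held 14 of 25 PDGFRα+ peaks (56.0%, against 33.6% of the whole list) and 40 of 68 CD137+ peaks (58.8%, against 31.7%). Intergenic peaks were 6 PDGFRα+ peaks (24.0%, against 38.7%) and 16 CD137+ peaks (23.5%, against 45.3%). The window of 50 kb around the spans limits how many peaks can be intergenic, so these shares partly follow from how peaks were taken. By position, 64.0% of PDGFRα+ peaks (42.5 to 82.0%) and 76.5% of CD137+ peaks (64.6 to 85.9%) had their centre inside a span. Among the latter, 3 CD137+ peaks inside a span nevertheless had the class intergenic. No PDGFRα+ peak and 4 CD137+ peaks were exonic. At genes with a listed start, the median distance to it was 131 kb for 17 PDGFRα+ peaks (2.43 to 427 kb) and 227 kb for 47 CD137+ peaks (0.115 to 841 kb). Median widths were 1109 bp for PDGFRα+ peaks and 1246 bp for CD137+ peaks, close to the 1237 and 1221 bp of the whole lists.

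Over 49 other genes of cadherin adhesion, from catenins to large cadherins, there were 46 PDGFRα+ and 81 CD137+ peaks. Their PDGFRα+ share was 36.2% (27.9 to 45.2%), against 35.6% of all peaks. The cadherin genes minus these 49 genes differed by -9.34 points (-21.1 to 3.21), an interval that includes 0. A PDGFRα+ peak lay at 27 of the 49 genes (55.1%, background 40.4%) and a CD137+ peak at 34 (69.4%, background 49.5%). By the rule above 3 leaned to PDGFRα+ (6.12%, background 5.10%) and 10 to CD137+ (20.4%, background 11.1%). These backgrounds cover genes of any length, and the 49 genes were not matched for it. Some of the 49 are very long, such as Ctnna3 (1574 kb) and Ctnna2 (1098 kb). Among all genes of at least 100 kb, 64.5% had a PDGFRα+ peak and 82.0% a CD137+ peak. Of genes that long, 9.51% leaned to PDGFRα+ and 33.8% to CD137+. The 18 intracellular partners had 29 PDGFRα+ and 34 CD137+ peaks, a share of 46.0% (33.4 to 59.1%). The cadherin genes minus these intracellular partners differed by -19.2 points (-33.7 to -3.87), a comparison chosen after the values were seen.

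Among the intracellular partners, the genes that leaned to PDGFRα+ were Ctnna1, which encodes alpha-E-catenin (2 PDGFRα+ peaks and 1 CD137+ peak), the p120-catenin relative Arvcf (2 and 1) and the actin regulator Eps8 (3 and 0). Those that leaned to CD137+ were Ctnna2, which encodes alpha-N-catenin (1 PDGFRα+ and 7 CD137+ peaks), Jup, which encodes plakoglobin (1 and 2), and Vcl, which encodes vinculin (1 and 3). The very long genes Ctnna3 (6 PDGFRα+ and 8 CD137+ peaks) and Ctnnd2, which encodes delta-catenin (7 and 6), leaned to neither and held 13 of the 29 PDGFRα+ peaks of the partners. Ctnnb1, which encodes beta-catenin, had 1 PDGFRα+ peak and 0 CD137+ peaks.

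The large cadherins had 7 PDGFRα+ and 18 CD137+ peaks. Dchs2 gave 0 PDGFRα+ and 7 CD137+ peaks, Fat2 gave 1 and 2, and Celsr1, a planar polarity gene, gave 1 and 2. Fat1 and Fat3 had 2 of each list. Among other cadherin-domain genes, Clstn1 had 0 PDGFRα+ and 3 CD137+ peaks, Clstn2 had 3 and 4, Cdhr3 had 1 and 5, and the receptor gene Ret had 1 and 2. The desmosomal gene Dsg1a had 0 PDGFRα+ and 4 CD137+ peaks in its own window, part of which it shares with neighbouring desmosomal genes.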

How the data were processed

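ATAC-seq peak lists of 1 PDGFRα+ library and 1 CD137+ library were analysed. Per the file headers, each deposited list gives chromosome, start, end, Ensembl gene ID and place class. The submitters' processing notes name CASAVA 1.8 and mm10 but give neither a role. What aligned the reads, called the peaks and made a peak unique, and whether cut sites were shifted, is not given in the sources used. A start may count from 0 or 1, and coordinates are printed as deposited.

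Gene spans came from a RefSeq table of GRCm38.p6. Of peaks classed intron, 95.2% (PDGFRα+) and 95.4% (CD137+) were centred in a protein-coding gene (41.5% and 41.1% with positions moved by 3 Mb). Promoters and strands came from RefSeq, and the strand of the other 13 genes was not used. Shares carry exact binomial intervals, differences of shares Newcombe intervals. No test was run, because each group is 1 library. Coordinates are given for genes that lean to a list and for genes with a peak over a listed start, and partner genes are named from 3 peaks. The coordinates at Cdh3 and Cdh23 and the naming of Ctnnb1, Adipoq and Wt1 fall outside this rule and were added after their values were seen. The genes, lists and rules were chosen with earlier results of these data known. Of 2000 centres simulated inside the spans of the cadherin genes, 2000 were given to the right gene. This checks the code only, since centres outside the spans were not simulated. Alternatives covered windows, overlap, widths, list length, merging, linked IDs and genes left out. Scripts ran in Python 3.11.15 (scipy 1.17.1, numpy 2.4.6, matplotlib 3.10.9, pandas 2.3.3).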

Additional observations from a re-analysis of the deposited data

How the results depend on the processing

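No paired analysis was possible because each group has 1 library, and no library could be left out in turn. Over 39 alternatives the PDGFRα+ share of peaks at the cadherin genes ran between 21.7 and 40.0%. It moved beyond its interval with each gene counted once per list (40.0%), where long genes lose their weight, and with lists of equal length (38.5%), where fewer CD137+ peaks enter. Both settings also change the share at other genes, so these values are not to be read against the 35.6% of all peaks. With lists of equal length the difference from other peaks was -11.6 points (-22.5 to 0.593). With each gene counted once no difference was computed. The number of genes with a PDGFRα+ peak was 7 among the wider 50% of each list, where fewer peaks enter. The difference from other peaks was below 0 in all 14 alternatives run, between -13.9 and -3.71 points. Its interval lay below 0 in 3 of them, namely inside the spans only (-12.1), without peaks centred in another gene (-10.9) and against peaks near other protein-coding genes (-11.2). Settings without peaks centred in another gene, and all other settings of the difference but those against peaks near other genes, were chosen after seeing the data. Depth is unknown and was not equalised.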

Other observations

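The clustered protocadherins, left out of the family above, are 57 genes on chromosome 18 that give nerve cells their surface identity. Their locus of 912 kb, with 50 kb on either side, held 1 PDGFRα+ and 6 CD137+ peaks. The PDGFRα+ peak was at chr18:37741485-37742713. The widest of the CD137+ peaks, at chr18:37814342-37816692, was 2350 bp wide.

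Farther from the cadherin genes the balance of the lists was nearer to that of all peaks. Between 50 and 500 kb from the nearest cadherin gene lay 77 PDGFRα+ and 120 CD137+ peaks, a PDGFRα+ share of 39.1% (32.2 to 46.3%), against 26.9% within 50 kb. The difference between these zones was not tested. Around Cdh6 this zone held 0 PDGFRα+ and 2 CD137+ peaks, while the 4 PDGFRα+ peaks given to that gene lay inside its span. Around Cdh13 it held 7 of each list.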
